A study of Mus musculus with 6 samples.

Results

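Sox30 encodes a transcription factor of the SOX family, which binds DNA through a high mobility group box. DNA methylation at and around this gene was described from 172 cytosine positions, out of 952515 positions read at least 10 times in all 6 libraries of the series. The members were all such positions on chromosome 11 (GRCm38) within Sox30 and 2 kb either side of it, rounded outwards to whole kb. The positions were chosen by their read counts alone. The gene itself was chosen with earlier results of these data known, methylation levels included, so its levels are given as a description. The edgeR and limma tests below were fitted over the whole genome and adjusted over all of it, and a feature was called where its adjusted p was below 0.05. The exact tests used the 6 library values of Sox30 alone and were not adjusted.

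The tissue was the right testis of mature male mice of the outbred KM strain. In 3 hemicastrated mice the left testis had been taken out before puberty, and 3 normal mice had a sham operation. Each mouse gave 1 library of whole testis DNA, no gene was altered, and no pooling was stated. Libraries were made by reduced representation bisulfite sequencing, in which the enzyme MspI cuts DNA at CCGG and bisulfite converts cytosines that carry no methyl group, so that each read reports a cytosine as methylated or not.

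SOX30 stands alone in its group of the SOX family. In mice it is made mainly in the testis, in meiotic spermatocytes and early round spermatids, and males that lack it are sterile because spermatids stop developing. Gene starts rich in CpG dinucleotides are unmethylated in most cells, whereas the starts of a set of germline genes are methylated in somatic cells and open in germ cells. The whole testis holds germ cells together with Sertoli, Leydig and other somatic cells. An intermediate level in such a mixture can come from a share of cells with full methylation or from partial methylation in many cells, and the measurements cannot tell these apart.

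The RefSeq promoter sequence of Sox30 (GRCm38.p6, chr11:45980060-45980359, plus strand) is shown because it holds the nearer of 2 declines in methylation toward the start, from 5.26% at 6 positions to 0.562% at the 3 nearest to the start. It reaches from 250 bases before to 50 bases after the transcription start at 45980310, and capitals mark the 13 of its 28 CpGs with a measured position.
Sox30 promoter: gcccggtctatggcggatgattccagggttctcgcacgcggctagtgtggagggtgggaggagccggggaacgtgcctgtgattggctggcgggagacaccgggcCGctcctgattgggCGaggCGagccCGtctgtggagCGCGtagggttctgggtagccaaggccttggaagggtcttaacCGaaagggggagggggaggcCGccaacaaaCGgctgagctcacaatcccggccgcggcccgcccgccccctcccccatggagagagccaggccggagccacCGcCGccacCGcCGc
All 17 measured positions inside this sequence fell on a cytosine of a CpG, on one strand or the other. The window had a GC content of 70.0%, and 85.8% of the 32851 promoter entries of the table held fewer CpGs, their median being 7.

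Motifs were looked up in the same 300 bases on both strands. The MspI site CCGG occurred 5 times, at 248, 187, 151 and 19 bases before and 25 bases after the start, and 52.8% of all promoters held at least 1. CCAAT occurred 2 times on the minus strand, 169 and 137 bases before the start, and was present in 37.4% of promoters. GGGCGG lay on the minus strand at 8 and 4 bases before the start, the 2 matches overlapping each other, and was present in 35.7% of promoters. AACNG, the core letters bound by Myb proteins, matched 69 and 38 bases before the start, and 80.3% of promoters held a match. Both AACNG matches contain a measured CpG, and these CpGs were methylated at 0.628% and 0.396% on average over the 6 libraries. ACAAT, the core of many SOX sites, matched 25 bases before the start, and 31.0% of promoters held a match. TGACGTCA, the site of cAMP response factors, had no match in the window, and 1.79% of promoters held it. A match of letters is no more than that, and binding was not measured.

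Before the gene is described, the libraries are summarised. They held 64504011 to 78630942 calls on 4188334 to 6473931 positions. Mitochondrial DNA served as a nearly unmethylated standard, and 0.478% to 0.617% of its 3578 to 7151 calls per library were methylated, with Wilson 95% intervals between 0.326% and 0.884%. All intervals given here treat each call as independent. Calls at neighbouring positions can share a read, so the intervals of summed calls are too narrow. They also leave out the error of PCR, and how its copies were handled is not stated. Germ cell and somatic cell contents were looked at through start windows, that is, 1000 bp either side of a transcription start. Of 10 germline genes used as germ cell markers 5 were measured, and their mean level was 23.9%, 15.8% and 18.3% in hemicastrated mice and 16.95%, 17.8% and 15.3% in sham mice. None of the 5 was near full methylation, the highest being Hormad1, a protein of meiotic chromosome axes, at 24.6%. Of 9 imprinted genes that carry methylation on the maternal copy and none in male germ cells, 5 were measured, at a mean of 11.2%, 7.15% and 5.48% in hemicastrated and 9.82%, 9.05% and 7.89% in sham mice. The lowest of the 5, Grb10, an adaptor of growth factor receptors, was at 0.830% ± 0.122 in hemicastrated and 0.720% ± 0.121 in sham mice, apart from the other 4. Plagl1, a zinc finger protein, in the middle, had 8.97% ± 2.84 in the hemicastrated and 8.26% ± 2.50 in the sham group, and Snrpn, an RNA splicing protein, was highest at 13.4% ± 6.66 in the hemicastrated and 17.7% ± 4.44 in the sham group (SD, n = 3 each). The groups overlapped for both marker lists, and the part of cell content in the values below was not tested.

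Along Sox30 the members fell into 7 stretches, cut where neighbouring measured positions lay at least 50 bp apart. A stretch of 16 positions lay 447 to 334 bp before the transcription start, and 9 positions lay 145 to 36 bp before it. After the start, 136 positions lay in stretches at 35 to 257, 327 to 389 and 488 to 562 bp. The next 27510 bp of the gene held no member. A single position followed 28073 bp after the start, and 10 positions lay 34119 to 34191 bp after it, the last of them 3491 bp before the gene's end at 46017992. The gene table starts Sox30 at 45979069, 1241 bp before the transcription start of the promoter table, so the positions before the start lie inside the gene's outer boundaries. Exons were not used here.

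All 136 positions up to 600 bp after the start averaged below 5% over the 6 libraries. Of the 25 positions before the start, 15 averaged at least 5% and below 20%. The 11 positions deep inside the gene averaged 75.9% to 88.2%. Called partial were positions that averaged 20% to 80%, and 5 of the 172 did so. One of them lay 418 bp before the start, at 20.2%, and the other 4 were the single position at 28073 bp and positions at 34120, 34149 and 34190 bp, at 75.9% to 79.4%. The nearest positions outside these limits averaged 17.7% and 82.7%, so the class marks a range and not a kind of position.

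**Figure D1:**
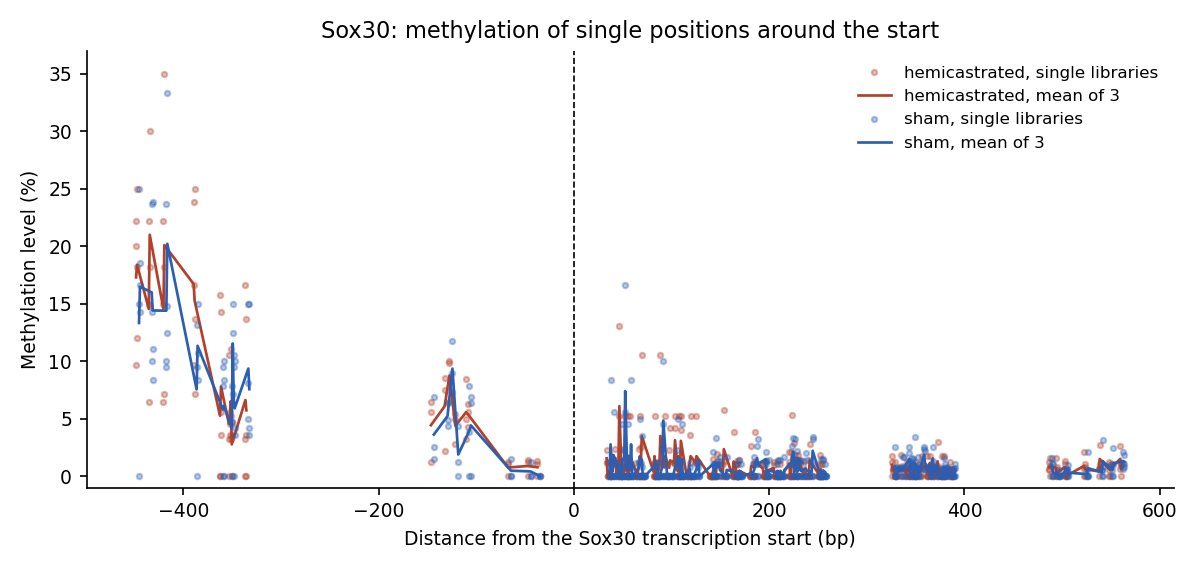
Methylation level in percent of each position against its distance in bp from the Sox30 transcription start (dashed line). Points are single libraries and lines are means of 3, drawn within each stretch. The 8 positions farthest upstream average 15.7% over the libraries, and up to 600 bp after the start every position averages below 5% over the 6 libraries, while group means reach 6.10% in hemicastrated mice at 48 bp and 7.41% in sham mice at 51 bp, both at positions read 12 times in their thinnest library.

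The stretch farthest upstream had a mean level above that of mitochondrial DNA and below 20% in every mouse. Its mean level was 10.05%, 14.8% and 9.21% in hemicastrated mice, against 13.97%, 11.8% and 6.25% in sham mice. The highest library was hemicastrated replicate 2 and the lowest sham replicate 3, and the groups overlapped. Group means were 11.4% ± 3.03 in hemicastrated and 10.7% ± 3.99 in sham mice (SD, n = 3 each). Between 295 and 522 calls per library stood behind these levels. The Wilson interval of the share of methylated calls was 11.6% to 19.8% in hemicastrated replicate 2 and 4.39% to 9.61% in sham replicate 3. Each position was read only 17 to 38 times per library and calls share reads, so these intervals are too narrow. The difference of 0.675 points between the group means was smaller than the spread between mice. It was -1.06 points without hemicastrated replicate 2 and -1.54 points without sham replicate 3. Only 4 of the 16 positions had at least 20 reads in every library, all on the minus strand 446 to 387 bp before the start. Over these 4 positions the difference was 3.07 points.

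Methylation stepped down within this stretch. Its 8 positions farther from the start, 447 to 387 bp before it, had 14.4%, 24.8% and 12.6% in hemicastrated and 16.8%, 17.6% and 8.23% in sham mice. Its 8 nearer positions, 361 to 334 bp before the start, had 5.73%, 4.86% and 5.86% in hemicastrated and 11.1%, 6.09% and 4.27% in sham mice. In each of the 6 libraries the farther part was the more methylated one. This division, like that of the next stretch, was placed after these levels had been seen, so the order is a description. With both strands of a CpG summed, the 4 farther CpGs averaged 16.4%, 16.5%, 17.2% and 12.6% over the libraries and the 4 nearer ones 5.98%, 6.18%, 5.54% and 7.33%. Spearman's rho between level and coordinate was -0.791 over the 16 positions, a description of points that share reads, and ranged from -0.840 to -0.143 in single libraries.

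A 2nd decline lay within the promoter sequence printed above. The 6 positions 145 to 107 bp before the start had 5.83%, 6.83% and 4.67% in hemicastrated mice and 6.37%, 4.91% and 2.94% in sham mice. The highest of them was 126 bp before the start, at 9.07% over the libraries. The 3 positions 66 to 36 bp before the start, which include both AACNG matches, had 1.27%, 0.476% and 0.713% in hemicastrated mice and 0%, 0.427% and 0.490% in sham mice. Over all 9 positions the level was 4.12% ± 0.699 in hemicastrated and 3.26% ± 1.07 in sham mice (SD, n = 3 each), from 610 to 919 calls per library. The group mean of hemicastrated mice was the higher one at 8 of the 9 positions, whose read counts within a library were nearly the same, and the groups overlapped for the stretch as a whole. The difference of 0.860 points was 0.290 without sham replicate 3, 0.567 without hemicastrated replicate 2 and 1.35 without sham replicate 1.

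After the start, the level of Sox30 was close to that of mitochondrial DNA. The 90 positions 35 to 257 bp after it had 0.623%, 1.21% and 0.794% in hemicastrated and 0.830%, 0.622% and 0.776% in sham mice. The 32 positions at 327 to 389 bp averaged 0.483% ± 0.189 in hemicastrated mice and 0.643% ± 0.184 in sham mice. The 14 positions at 488 to 562 bp averaged 0.737% ± 0.144 in hemicastrated mice and 0.660% ± 0.0427 in sham mice (SD, n = 3 each). Between 1692 and 6535 calls per library lay behind each of these stretches. Of the 172 members 7 were methylated in no read, all of them 35 to 257 bp after the start. Each had 120 to 546 reads over the 6 libraries, and a count of 0 allows a level of up to 2.5% at 120 reads and 0.549% at 546 reads (3 counts of the total).

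The members nearest to the limit of 10 reads were 22 positions between 36 and 127 bp after the start, read 12 times in their thinnest library. They averaged 1.46% and ranged from 0% to 4.18%, while the other 68 positions of that stretch averaged 0.6001%. All 22 lay on the minus strand of a CpG whose plus strand position was read more often, so depth and strand cannot be told apart. Over the 45 CpGs of that stretch measured on both strands, the plus strand averaged 0.555% and the minus strand 1.06%. No position of the region had 5 to 9 reads as its lowest count, and the 4 nearest positions left out had a single read in at least 1 library. As means of the 6 library levels, those 690 and 717 bp after the start were at 0%, with 13 and 9 reads in total. Those 3124 and 3154 bp after it were at 100% and 94.4% by the same mean, with 9 reads in total each.

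**Figure D2:**
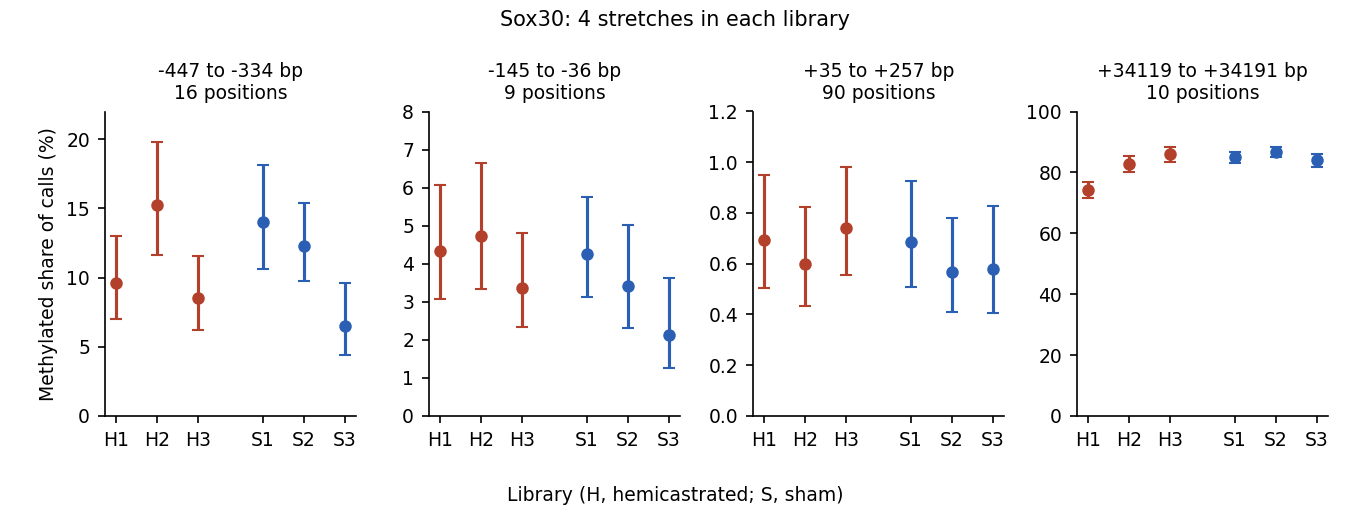
Share of methylated calls in percent in each library (H, hemicastrated replicates 1 to 3; S, sham replicates 1 to 3) for 4 stretches of Sox30, with Wilson 95% intervals and a separate axis from 0 for each. Hemicastrated replicate 2 is the highest and sham replicate 3 the lowest library before the start. Near the gene's end hemicastrated replicate 1 lies below the other 5. The intervals take calls as independent although calls share reads, so they are too narrow.

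Positions on both strands of a CpG formed 81 pairs. Over all pairs the plus strand averaged 6.62% and the minus strand 7.04%, and the mean absolute difference within a pair was 1.03 points. In the stretch farthest upstream the plus strand averaged 10.2% and the minus strand 11.8% over 8 pairs. In single libraries the order of the strands there went both ways, as in hemicastrated replicate 1, with 13.2% on the plus and 6.92% on the minus strand, and in hemicastrated replicate 3, with 5.24% and 13.2%. Each strand had about 24.5 and 23.4 reads per position there, so these strand differences rest on few reads.

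Deep inside the gene, Sox30 was methylated. The 10 positions 34119 to 34191 bp after the start, 5 CpGs on both strands, had 74.7%, 81.5% and 86.0% in hemicastrated and 85.6%, 85.6% and 84.6% in sham mice. Hemicastrated replicate 1 was the lowest library and hemicastrated replicate 3 the highest, and the groups overlapped. Group means were 80.7% ± 5.68 in hemicastrated and 85.3% ± 0.534 in sham mice (SD, n = 3 each), from 755 to 1570 calls per library. The group mean of hemicastrated mice was the lower one at all 10 positions, which share reads. The difference of -4.53 points was -1.51 points without hemicastrated replicate 1 and -7.14 points without hemicastrated replicate 3. In hemicastrated replicate 1 the Wilson interval of the methylated share was 71.5% to 77.0%. It lay below those of the other 5 libraries, which lay between 80.01% and 88.5%. The 975 calls of hemicastrated replicate 1 came from 5 CpGs read 195 times each, both strands summed. Calls that share reads are counted as independent here, so these intervals are too narrow.

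The single position 28073 bp after the start (46008383) had the widest range over the 6 mice of all 172 members. Its level was 94.0%, 71.4% and 54.9% in hemicastrated mice, on 50, 49 and 71 reads, and 90.3%, 94.1% and 70.6% in sham mice, on 31, 51 and 68 reads. Each group held a library above 90% and one close to 71%, and the groups overlapped. The means of 73.5% ± 19.6 in hemicastrated and 85.01% ± 12.6 in sham mice (SD, n = 3 each) differed by less than that spread (edgeR's quasi-likelihood test, adjusted p = 0.841). Among partial positions the largest differences were this one, of -11.6 points, and those at 34120 and 34149 bp, of -2.80 and -2.47 points, and no partial position had a higher mean in hemicastrated mice. The difference at 28073 bp was -2.30 points without hemicastrated replicate 3, -21.8 points without hemicastrated replicate 1 and -18.8 points without sham replicate 3, and -7.00 points without sham replicate 2.

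**Figure D3:**
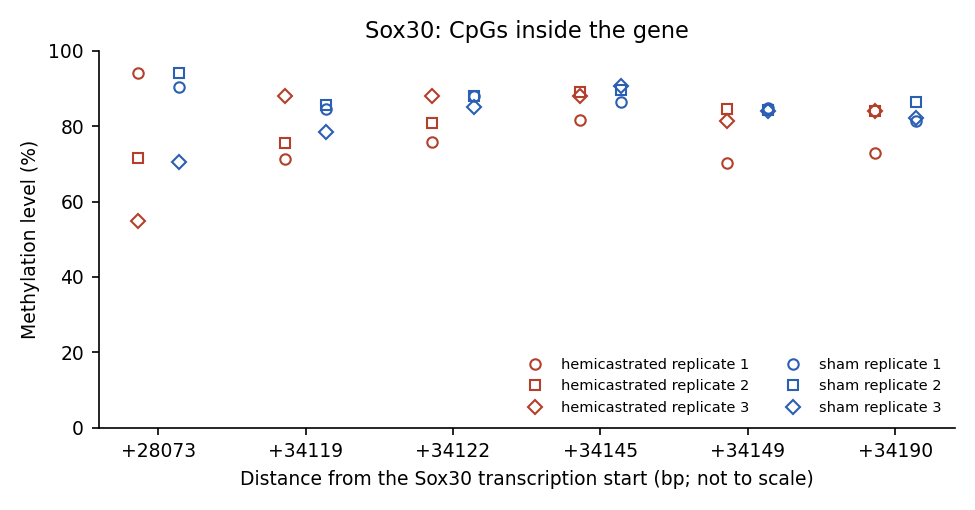
Methylation level in percent of the single position at 28073 bp and of 5 CpGs, both strands summed, at 34119 to 34190 bp after the Sox30 start, spaced evenly and not to scale. Each symbol is 1 library; the position at 28073 bp runs from 54.9% to 94.1%, and hemicastrated replicate 1 is the lowest library at all 5 CpGs near the gene's end.

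Group differences at Sox30 did not pass any test over the genome. The mean level of the 172 positions was 6.49%, 7.62% and 6.90% in hemicastrated and 7.61%, 7.34% and 6.58% in sham mice, and the groups overlapped. The means were 7.002% ± 0.571 in hemicastrated and 7.18% ± 0.535 in sham mice (SD, n = 3 each). Their difference of -0.176 points had a standard error of 0.452 (two-sided exact permutation test of the 6 libraries, p = 0.8, with 0.1 the lowest p this design allows). The same difference was 0.0798 points without hemicastrated replicate 1 and 0.0399 points without sham replicate 1.

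With calls pooled over positions, so that well-read positions weigh more, the difference was -3.48 points (5.79% ± 0.571 in hemicastrated and 9.27% ± 0.351 in sham mice, SD, n = 3 each; two-sided exact permutation test, p = 0.1, the lowest this design allows). The methylated stretch near the gene's end took 6.94%, 4.89% and 5.09% of all Sox30 calls in hemicastrated mice and 9.67%, 9.30% and 9.26% in sham mice. These shares of reads did not overlap between the groups, and their part in the pooled difference was not tested.

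Of the 4 Sox30 tiles of 500 bp with at least 3 positions, none was called. The background is 0% of 71149 tiles called by edgeR's quasi-likelihood test, 3040 of them (4.27%) with an unadjusted p below 0.05, and limma also called 0, with 3549 at an unadjusted p below 0.05. The tile from 45979501 to 45980000, upstream of the start, had 11.1% ± 3.62 of calls methylated in hemicastrated and 10.9% ± 3.90 in sham mice (SD, n = 3 each; edgeR adjusted p = 1). The tile from 45980001 to 45980500, which holds the start, had 1.29% ± 0.183 in hemicastrated and 1.07% ± 0.268 in sham mice. The tile from 45980501 to 45981000 had 0.561% ± 0.136 in hemicastrated and 0.620% ± 0.111 in sham mice. The tile from 46014001 to 46014500, near the gene's end, had 81.03% ± 5.79 in hemicastrated and 85.4% ± 1.15 in sham mice, an unadjusted p of 0.1998 and an adjusted p of 1. The groups overlapped in all 4 tiles, against 9.49% of all tiles without overlap.

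Of the 165 Sox30 positions tested one by one, none was called, where edgeR called 0.087% of 814966 positions in the genome. An unadjusted p below 0.05 was found at 2 of them (1.21%), below the 2.62% of the genome. The position 374 bp after the start had 0%, 3.01% and 0.893% in hemicastrated and 0% in every sham mouse, and the position at 223 bp had 0% in every hemicastrated and 1.47%, 1.64% and 3.33% in sham mice (edgeR adjusted p = 0.841 for each). The groups did not overlap at 7 of the 172 positions (4.07%), where 5.18% of all positions of the genome had such groups. The one of these upstream of the start, at 351 bp before it, had 3.57%, 5.56% and 4.55% in hemicastrated and 15%, 7.14% and 12.5% in sham mice, on 18 to 28 reads. The test of single positions gave all positions 1 common spread, so a position's own spread between mice did not enter it.

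Sox30 was also set against other genes at the same distance from the start. At 447 to 334 bp before their own start, 1719 genes had at least 3 positions, with a median level of 0.511%. The 11.02% of Sox30 exceeded 96.3% of them, and among 1627 genes whose whole start window was below 5% it exceeded 99.8%. The start window contains the interval ranked, so this filter itself takes out genes with a high level there. Sox30 had 161 positions in its window, more than 99.4% of measured starts, whose median was 31. The 99.8% is therefore no added support. At 145 to 36 bp before the start the 3.69% of Sox30 exceeded 95.8% of 3903 genes, whose median was 0.503%. At 35 to 257 bp after the start the 0.809% of Sox30 exceeded 83.7% of 6862 genes, whose median was 0.510%. It exceeded 88.4% of the 6452 among them with a start window below 5%, with the same limit of the filter. At 327 to 389 bp after the start the 0.563% of Sox30 exceeded 59.1% of 2673 genes, whose median was 0.508%, and at 488 to 562 bp its 0.699% exceeded 70.5% of 1904 genes, whose median was 0.533%. Genes that share a start region share positions here, so these ranks are a description.

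**Figure D4:**
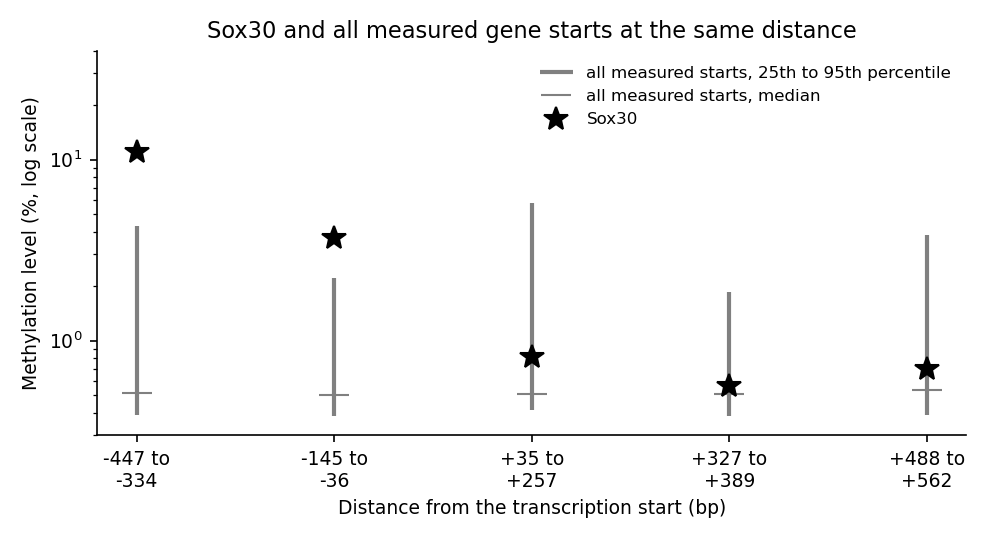
Methylation level in percent, on a log axis, of Sox30 (stars) and of all measured gene starts (bars from the 25th to the 95th percentile, dash at the median) in 5 intervals of distance in bp from the transcription start, as means of the 6 libraries. Sox30 lies above the 95th percentile in both intervals before the start and within the bars after it.

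The whole start window of Sox30, with 161 positions, had 1.71%, 2.63% and 1.69% in hemicastrated and 2.25%, 1.95% and 1.33% in sham mice. The means were 2.01% ± 0.538 in hemicastrated and 1.84% ± 0.468 in sham mice (SD, n = 3 each; edgeR's quasi-likelihood test, adjusted p = 0.999). The difference of 0.165 points was -0.146 without hemicastrated replicate 2 and -0.0907 without sham replicate 3. The median of 11994 measured gene starts was 0.569%, and 82.7% of them were below Sox30. None of 11978 tested starts was called (0%), and 528 (4.41%) had an unadjusted p below 0.05. The starts most like that of Sox30, by the root mean square difference of the 6 library levels, were those of Gm38538 (0.266 points), Lhx3 (0.273), Rpl35 (0.277), and Gm41414 and Gm52265 (0.312 each, a shared set of positions). In all, 48 starts lay within 0.5 points of Sox30 by this measure.

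Other SOX genes had low start windows. Of 19 listed SOX genes 10 were measured, all below 5% with a median of 0.569%, and none was called. Sox4 was lowest, with 0.468% ± 0.0840 in hemicastrated and 0.328% ± 0.0398 in sham mice, and Sox11, near the middle, had 0.570% ± 0.136 in the hemicastrated and 0.480% ± 0.0392 in the sham group (SD, n = 3 each). Only Sox15, a SOX gene active in muscle precursors, lay above Sox30, at 2.44% ± 1.24 in hemicastrated and 3.12% ± 0.769 in sham mice over 4 positions. At 145 to 36 bp before the start, Sox2, Sox8, Sox12, Sox13 and Sox14 had 0.341% to 0.853%, against the 3.69% of Sox30.

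Regulators of meiotic and spermatid transcription had start windows both below and above 5%. Of 18 listed genes 10 were measured and 6 of these were below 5%, while none was called. Rfx3, of the RFX family that drives cilium genes, was lowest at 0.458% ± 0.589 in hemicastrated and 0.198% ± 0.198 in sham mice, and Tcfl5, a transcription factor of spermatocytes, had 1.25% ± 0.263 in the hemicastrated and 1.001% ± 0.0603 in the sham group. Stra8, needed for entry into meiosis, was highest at 25.6% ± 5.14 in hemicastrated and 17.4% ± 14.97 in sham mice (SD, n = 3 each), with sham replicate 3 at 34.6% and the other sham libraries at 9.43% and 8.05%. Sohlh2, which acts in spermatogonia, had 18.1% ± 0.293 in hemicastrated and 17.4% ± 1.19 in sham mice over its start window. At 145 to 36 bp before the start Sohlh2 had 19.8% over 4 positions. The other regulators measured there, Tbpl1, Hsf2 and Rfx2, had 0.358%, 0.561% and 0.561%.

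Germline genes known to be methylated in somatic cells were more methylated than Sox30 over the start window. Of 14 listed genes 9 were measured, with a median of 19.2%, and all 9 lay above Sox30. Dazl, an RNA-binding protein of germ cells, was lowest at 8.79% ± 1.36 in hemicastrated and 7.57% ± 1.03 in sham mice, Asz1, of the piRNA pathway, had 20.2% ± 3.11 in the hemicastrated and 18.2% ± 4.73 in the sham group, and Hormad1 was highest at 24.2% ± 2.14 in the hemicastrated and 24.9% ± 4.76 in the sham group (SD, n = 3 each). The group mean of hemicastrated mice was higher for 8 of the 9, where 6666 of all 11978 tested starts were higher, and none was called (0% of all starts being called). Of the 9 genes 5 are also the germ cell markers given above. At 447 to 334 bp before the start Hormad1 had 25.9%, and at 145 to 36 bp Hormad1, Slc25a31 and Asz1 had 23.9%, 21.8% and 17.5%.

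Of 12 listed spermatocyte and spermatid genes only 3 had a measured start, and none was called. Tssk6, a kinase of spermatids, had 1.10% ± 0.312 in hemicastrated and 0.889% ± 0.0483 in sham mice. Tnp1, a transition protein of spermatid chromatin, had 23.5% ± 4.29 in hemicastrated and 11.9% ± 3.24 in sham mice over 5 positions, and its groups did not overlap, as at 9.52% of all starts (edgeR unadjusted p = 0.00705, adjusted p = 0.992). Prm1, a protamine of sperm chromatin, had 87.1% ± 1.73 in the hemicastrated and 87.8% ± 4.62 in the sham group (SD, n = 3 each).

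**Figure D5:**
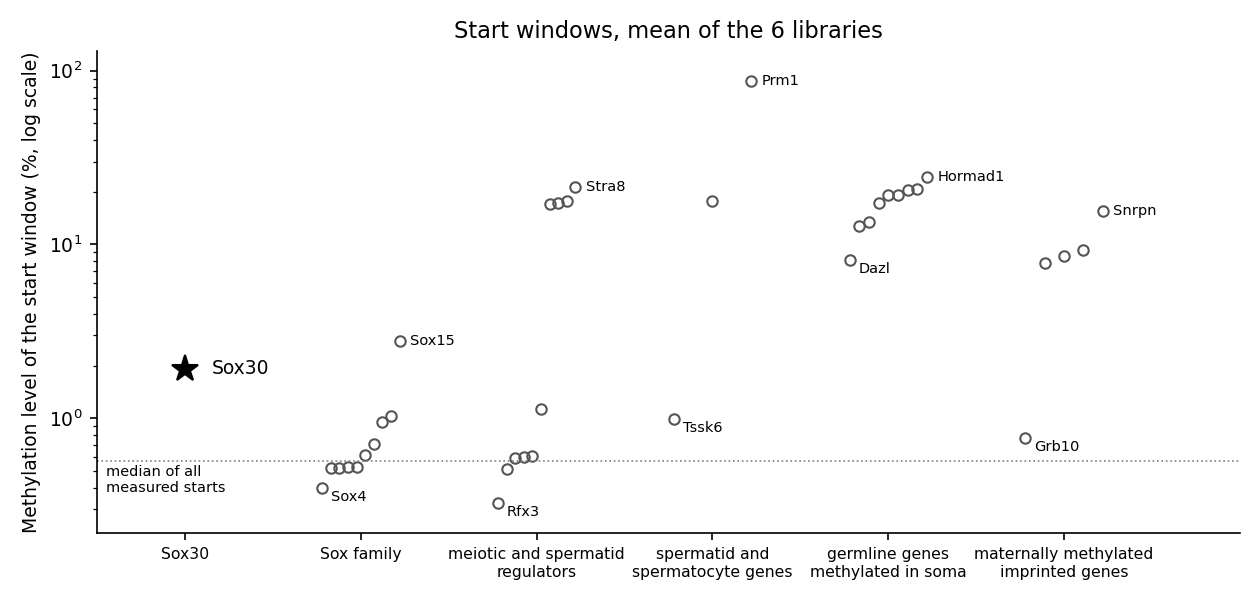
Methylation level of start windows in percent, on a log axis, as the mean of the 6 libraries for Sox30 (star) and for each measured gene of 5 lists, with the lowest and the highest gene of each list named. Sox30, at 1.93%, lies above 9 of the 10 measured SOX genes and below all 9 germline genes.

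The nearest measured starts on either side were low. Thg1l, which encodes a tRNA guanylyltransferase and starts 24807 bp before Sox30, had 0.750% ± 0.215 in hemicastrated and 0.321% ± 0.321 in sham mice over 12 positions, and the groups overlapped. Gm35624, 185693 bp after the Sox30 start, had 0.904% ± 0.532 in the hemicastrated and 0.879% ± 0.462 in the sham group (SD, n = 3 each).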

How the data were processed

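Per the labels' protocols, testis DNA was digested with MspI, ligated to methylated adaptors, size-selected, treated with bisulfite (ZYMO EZ DNA Methylation-Gold), PCR-amplified and run on an Illumina GAII. The submitters' processing notes name Bismark, TopHat2 2.0.11 and GRCm38 without their roles. For trimming and the handling of duplicate reads, the sources used here give nothing. Per library the authors deposited raw counts of methylated and unmethylated reads at each position and the level in percent, which differed from the share of methylated reads by less than 1e-09 points at every position.

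Positions read at least 10 times in each of the 6 libraries were analysed. Either strand of a CpG was its own position. Levels of the region, stretches and start windows are unweighted means over positions, and tile levels are shares of summed calls. Methylated and unmethylated counts were fitted with edgeR 4.0.16 (R 4.3.3), each library having its own baseline and the groups differing in methylation. Quasi-likelihood p-values were adjusted by Benjamini-Hochberg over all tiles, all starts or all positions, at 0.05. The common dispersion came from 20000 features, and features with no methylated or no unmethylated read dropped out. limma 3.58.1 was an alternative for tiles. The code was tested on simulated tiles. With the spread seen between these mice, it called 2.99% of tiles shifted by 10 points, 31.3% by 20 and 95.5% by 40. Shifts as small as the Sox30 tile differences were not simulated. A tile left uncalled therefore does not show that its groups are equal. Starts, strands and sequences came from RefSeq tables of GRCm38.p6, and a gene with several starts was taken at the one with most positions.

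The members and gene lists were chosen with earlier results of these data known. Stretches were cut at gaps of 50 bp after the positions had been seen, and the upstream stretches were divided after their levels had been seen. Named were every Sox30 tile, the partial positions with the largest differences, the 5 starts most like Sox30 and the lowest, middle and highest gene of each list; others were chosen after their values were seen. The labels do not say that replicate numbers pair the mice.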

Additional observations from a re-analysis of the deposited data

How the results depend on the processing

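No Sox30 tile or position was called under any alternative run: each library left out, a minimum of 5 (tiles) or 20 reads, the replicate number as a block, a robust prior, and for tiles limma, a grid moved by 250 bp and tiles of 1 position. The value for tiles and for positions was 0 calls throughout. Without 1 library the difference in the region level ran from -0.484 to 0.0798 points, that of the start window from -0.146 to 0.369, that of the stretch farthest upstream from -1.54 to 2.32, and those of the stretches at 35 to 257 and 488 to 562 bp from -0.0341 to 0.260 and from -0.00456 to 0.131. It kept its sign in the stretches at 145 to 36 bp before the start (0.290 to 1.35), at 327 to 389 bp (-0.267 to -0.0534), at 28073 bp (-21.8 to -2.30) and at 34119 to 34191 bp (-7.14 to -1.51). Those of the tiles starting at 45979501 and 45980501 ran from -2.00 to 1.72 and from -0.113 to 0.0175. With the replicate block the region difference was -0.176 points (exact sign-change test, p = 1, the smallest possible being 0.25). Deviations of same-numbered mice correlated at 0.0586, 0.0778 and 0.0346 over 71235 tiles, and each hemicastrated library correlated best with its own number. The read minimum of 20 kept 138 of 172 positions and gave -0.274 points. Over the genome, 3 of 106877 tiles were called where a single position was enough, and 8 of 11978 starts with the replicate block and 1 without sham replicate 3, none of them Sox30. The stretch farthest upstream had 17 to 38 reads per position.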

Other observations

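Beside the members, further positions of the region were listed but read fewer than 10 times in at least 1 library. Inside the gene, between the last position near the start and the stretch near the gene's end, 150 such positions held 287 calls in hemicastrated mice, 47.4% of them methylated (Wilson 95% interval 41.7% to 53.2%), and 183 calls in sham mice, 63.9% methylated (56.8% to 70.5%). By library the share was 36.5%, 36.0% and 67.6% in hemicastrated mice and 62.0%, 48.6% and 80.4% in sham mice, so the groups overlapped. The libraries cover different positions here, and the shares are not a comparison of the same CpGs.

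Beyond the gene's end, 10 thinly read positions held 24 calls in hemicastrated mice and 2 calls in sham mice, and all of them were methylated. Hemicastrated replicate 3 held 20 of the 24 calls and replicate 2 held 4. The 2 sham calls came from sham replicate 3, and the remaining libraries had none. Between the members around the start, 34 such positions held 117 calls in hemicastrated mice, 4.27% of them methylated (1.84% to 9.62%), and 92 calls in sham mice, 1.09% of them methylated (0.192% to 5.90%). The share there was 27.3% of 11 calls in hemicastrated replicate 1 and 0% to 2.63% in the remaining libraries. Before the first member, 15 such positions held 17 calls in hemicastrated mice, 17.6% of them methylated (6.19% to 41.03%), and 14 calls in sham mice, 57.1% of them methylated (32.6% to 78.6%). Near the gene's end, 14 such positions held 13 calls in hemicastrated mice, 38.5% of them methylated (17.7% to 64.5%), and 11 calls in sham mice, 72.7% of them methylated (43.4% to 90.3%). In both of these zones single libraries had 0 to 12 calls, and before the first member sham replicate 2 held 12 of the 14 sham calls. The intervals pool the reads of 3 mice and leave out the spread between mice, so they cannot compare the groups.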
